A study of Mus musculus with 24 samples.

Results

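The 10 genes described here are the urea cycle enzymes and periportal hepatocyte genes Cps1, Ass1, Asl, Arg1, Otc, Hal, Sds, Gls2, Etnppl and Cdh1. They were taken by gene symbol from the deposited tables, and each of the 10 symbols matched 1 of 27802 genes. Liver mRNA came from 24 adult mice, 1 library per mouse. A viral vector (AAV) with a Cre-dependent caspase 3 had been placed in the arcuate nucleus of the hypothalamus to kill the AgRP neurons that express the angiotensin receptor AT1R. Mice lived at 22 °C or 30 °C from surgery, and livers were frozen 2 weeks later. The 8 groups crossed ablation, temperature and sex. At 22 °C there were 3 control males, 3 control females, 3 ablated males and 3 ablated females, and at 30 °C there were 2, 4, 3 and 3.

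All 12 ablated mice carried Cre, as did 4 of 12 controls (male 1 at 22 °C, and males 1 and 2 and female 4 at 30 °C). All mice at 22 °C were of the line Ai39 x BAC-AT1A-Cre. At 30 °C, 7 mice were of that line, ablated male 2 and ablated female 3 were Ai9 x BAC-AT1A-Cre, and ablated male 3, control male 1 and control female 3 were BAC-AT1A-Cre alone. The sources used here give neither the injection of the controls nor the ages of the mice. The neurons lie in the brain, so no liver transcript measures how complete the ablation was. Depth was 21691653 to 34851108 reads in genes per library, and mitochondrial transcripts took from 7.53% to 37.3% of them. Control male 1 at 30 °C stood apart, with 6372 of 20213 tested genes at 0 reads against 1667 to 3970 in the other 23 libraries. Summed hepatocyte markers were between 67502 and 115322 CPM (reads scaled to a common library size), and no gene of that list was at 0 in every library. Exocrine pancreas markers summed to at most 1.4 CPM.

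The liver clears ammonia by turning it into urea. Cps1 and Otc work in the mitochondrion, where ammonia becomes carbamoyl phosphate and then citrulline. Ass1, Asl and Arg1 finish the cycle in the cytosol and release urea and ornithine. Hepatocytes near the portal vein, where blood enters the lobule, hold most of this pathway, and hepatocytes around the central vein take up leftover ammonia through glutamine synthetase. Hal (histidine ammonia-lyase), Sds (serine dehydratase) and Gls2 (liver glutaminase) release ammonia from amino acids in the same zone. Etnppl breaks down phosphoethanolamine, and Cdh1 encodes E-cadherin, the adhesion protein of epithelial cells, which is found on periportal hepatocytes and also on bile duct cells. In whole liver, fewer cells of a type and less RNA per cell cannot be told apart.

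The cytosolic enzymes were the most abundant of the 10 per unit of length. In FPKM, the authors' level scaled by gene length and depth, the median over the 24 libraries was 594 for Arg1 and 591 for Ass1. Asl followed at 166, Gls2 at 151, Sds at 136, Cps1 at 114, Otc at 100.05 and Hal at 54.1 FPKM. Etnppl (11.8 FPKM) and Cdh1 (3.97 FPKM) were far lower. Together the 10 genes took from 0.412% to 0.937% of the reads of a library.

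**Figure D1:**
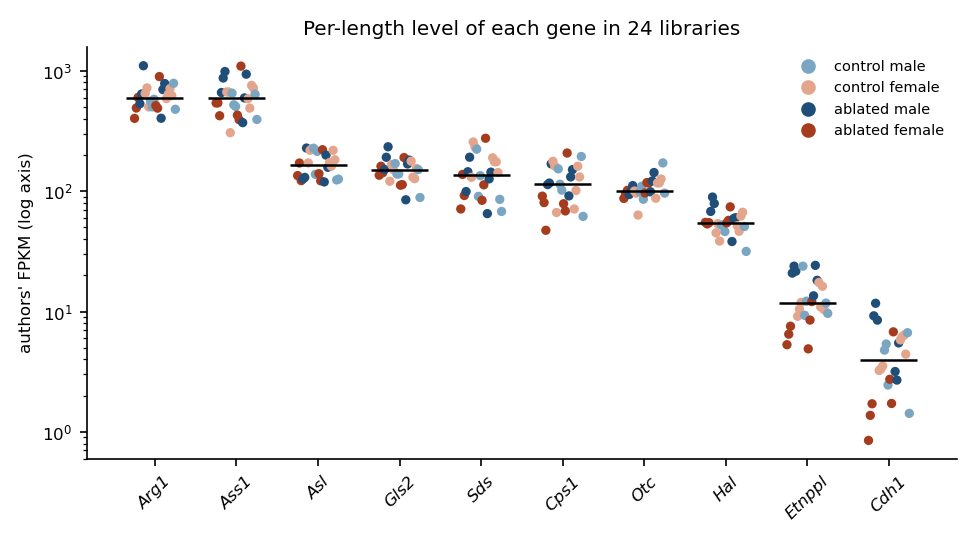
Authors' FPKM of each gene (log axis) in the 24 liver libraries, coloured by ablation and sex, with the median as a black line. Arg1 and Ass1 lie near 600 at their medians (594 and 591), and Cdh1 is lowest at 3.97 with the widest spread.

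The spread between livers differed by gene. On the CPM scale, which sets libraries side by side for 1 gene, Otc varied least, with a coefficient of variation of 20.2% over the 24 livers, and Cdh1 most, at 60.1%. The highest Cdh1 library held 13.6 times the level of the lowest, against 1.94 times for Asl. For 9 of the 10 genes, every pair of neighbours in the order of the 8 group means overlapped. Cdh1 was the exception: its libraries were apart between ablated males at 22 °C and the next group, and between ablated females at 22 °C and the group above them. The group above them was the control females at 22 °C, and 11.9% of all genes had no overlap between those groups. The share of all genes with a gap anywhere in the order was not computed.

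**Figure D2:**
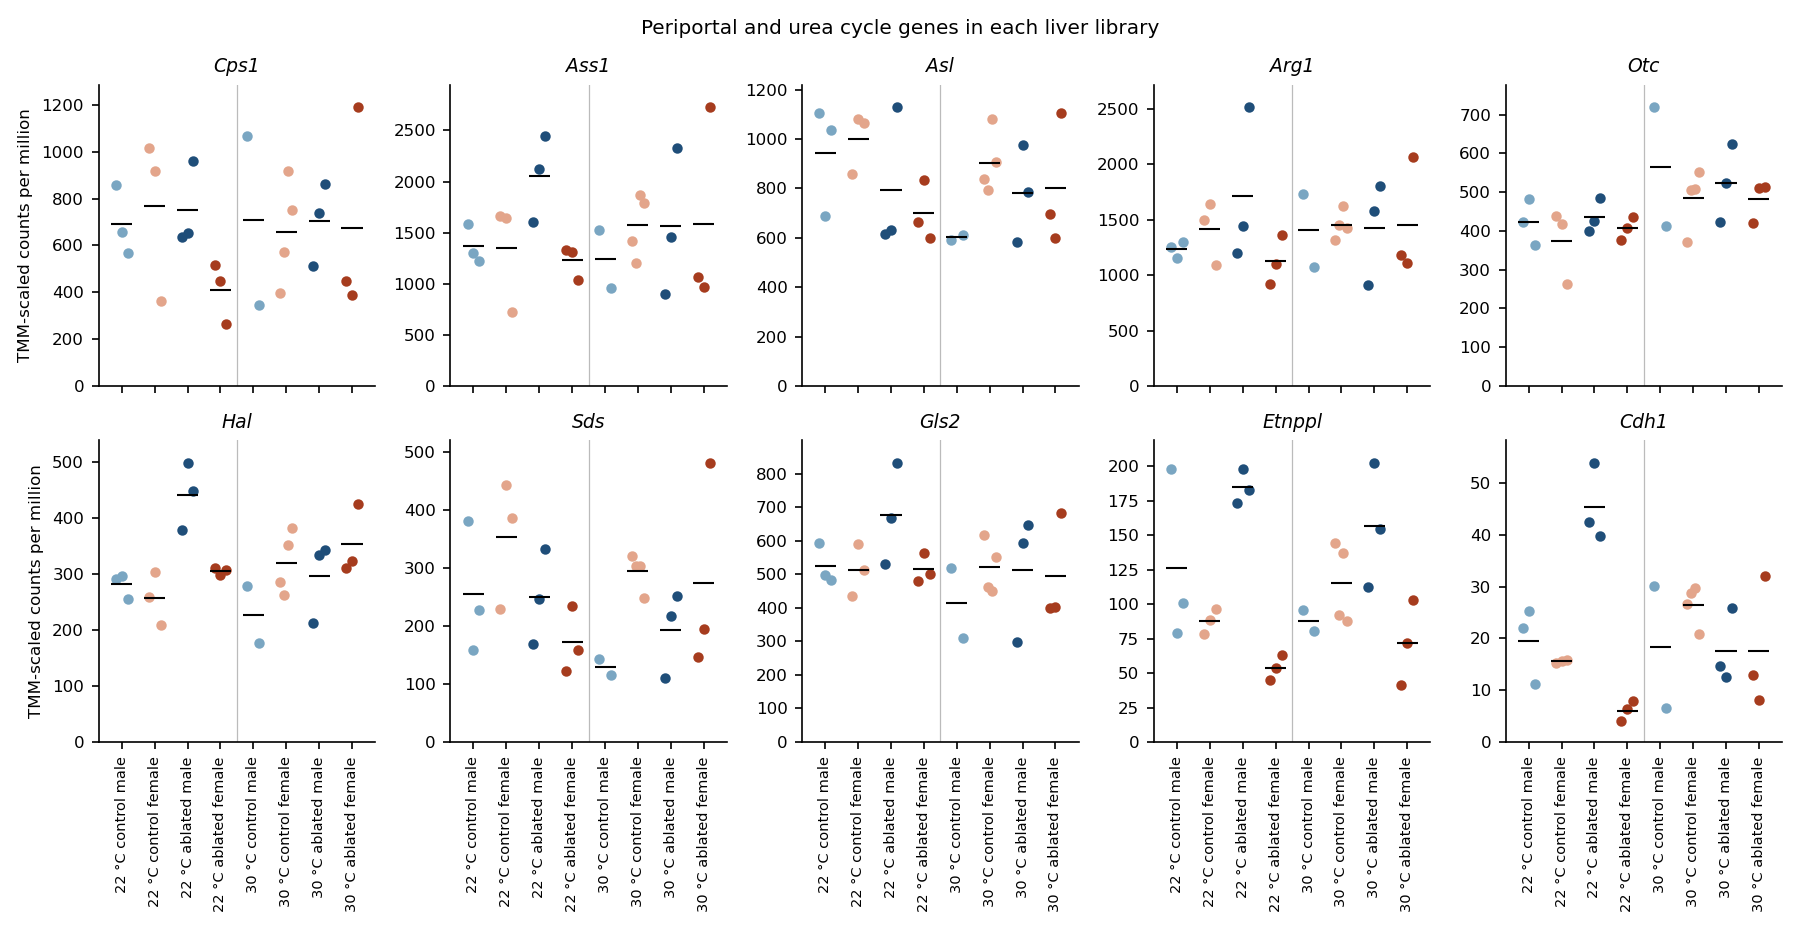
TMM-scaled CPM of the 10 genes in every library, by group, with group means as black lines. Pale points are controls and dark points ablated mice, blue for males and red for females. Most groups overlap, while the 3 ablated females at 22 °C are low for Cdh1 (3.96 to 7.94 CPM) and the 3 ablated males high (39.8 to 53.9 CPM).

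The genes moved together across livers to different degrees. Ablated male 3 at 22 °C and ablated female 3 at 30 °C were above the 24-library median for all 10 genes, and control male 2 at 30 °C was below it for all 10. Over the 24 libraries, which share their groups and depth, Pearson's r of log2 CPM was 0.84 for Asl with Sds, 0.80 for Cps1 with Ass1, 0.78 for Ass1 with Arg1 and 0.70 for Etnppl with Cdh1. The values are descriptions of these libraries. For deviations from group means, the r of these pairs was 0.79, 0.88, 0.78 and 0.34 in the same order. The value for Etnppl with Cdh1 thus owes much to differences between groups. For Otc the r over the 24 libraries ranged from 0.55 with Cps1, 0.54 with Arg1 and 0.51 with Ass1 to -0.09 with Sds and -0.15 with Asl. For deviations from group means, Otc had 0.20 with Sds and 0.08 with Asl.

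**Figure D3:**
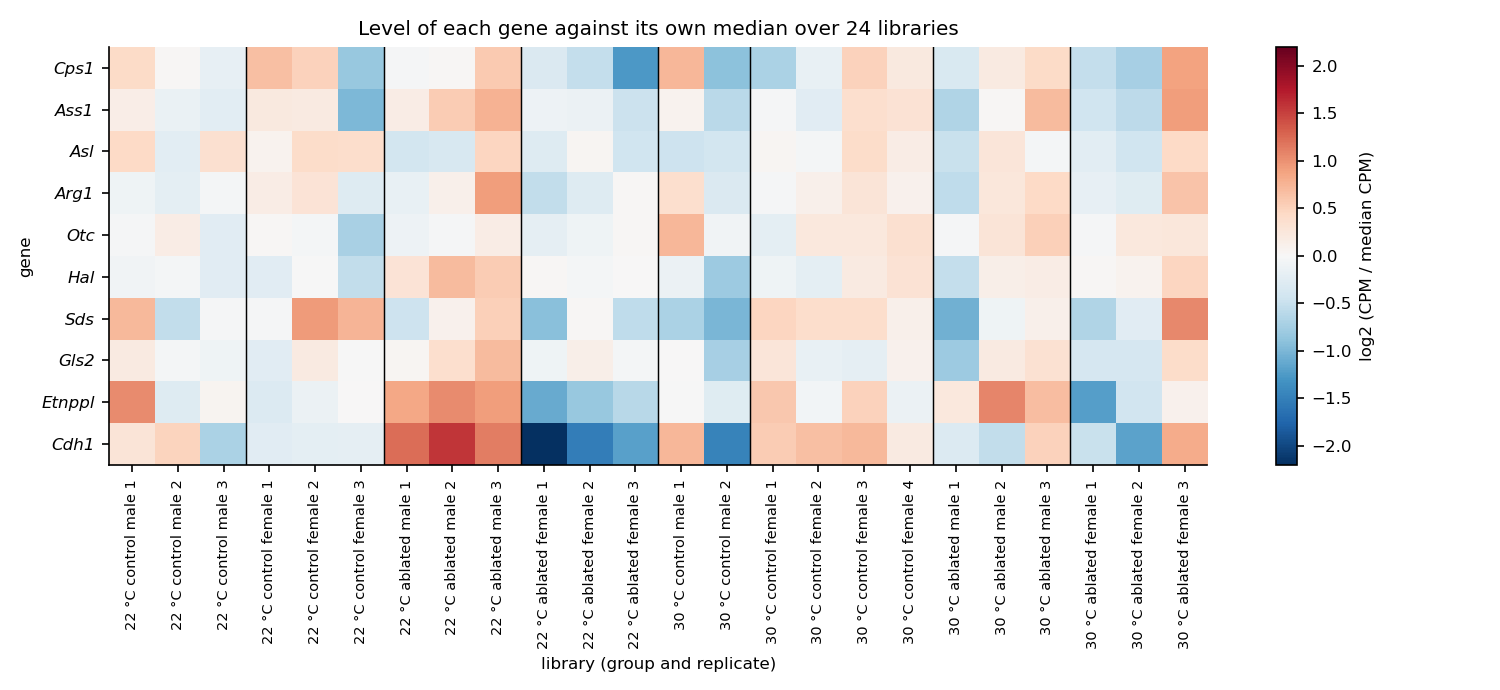
Log2 ratio of each gene's CPM to its own median over 24 libraries (colour), with libraries ordered by group. Ablated females and males at 22 °C show opposite colours for Cdh1 and Etnppl, and control male 2 at 30 °C lies below the median for all 10 genes.

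The first question was whether ablation changed these genes in the liver at either temperature. It did not pass the test for any of them: edgeR's quasi-likelihood test called 0 of 10 at 22 °C, where 0.094% of all 20213 tested genes were called, and 0 of 10 at 30 °C, where the share of all genes was 0%. At an unadjusted p under 0.05 there were 2 of the 10 at 22 °C and 0 at 30 °C, against 1685 and 1407 of all genes, and DESeq2 and limma voom also called 0 of 10 at each temperature. The median log2 fold change of the 10, ablated over control, was 0.00 at 22 °C and 0.09 at 30 °C, beside 0.02 and 0.05 for all tested genes. Their SE was between 0.15 and 0.36.

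Among the cytosolic urea cycle enzymes, Asl (argininosuccinate lyase) at 22 °C was 746 ± 206 CPM (SD, n = 6) in ablated mice and 972 ± 164 (n = 6) in controls. The groups overlapped. Its log2 fold change was -0.38 ± 0.18 (SE; edgeR adjusted p = 0.554). Ass1 (argininosuccinate synthase) had 0.23 ± 0.26 with 3 of 6 ablated livers above controls of the same sex, and Arg1 (arginase) 0.07 ± 0.19. In the mitochondrion, Cps1 (carbamoyl phosphate synthetase) had -0.39 ± 0.34 and Otc (ornithine transcarbamylase) 0.09 ± 0.15. The 95% interval of the Cps1 difference ran from -1.12 to 0.33, so a fall of that size is within what these libraries allow.

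Hal had the lowest p of the 10 for ablation at 22 °C. Ablated males measured 379, 499 and 449 CPM and ablated females 312, 298 and 308. Control males measured 291, 297 and 257 CPM and control females 259, 304 and 209. Each ablated liver was above the mean of controls of its sex, and the pooled groups overlapped. The log2 fold change was 0.45 ± 0.15 (SE), with an unadjusted edgeR p of 0.0050 and an edgeR adjusted p of 0.345. At 30 °C Hal had 0.26 ± 0.15 (edgeR adjusted p = 0.769). Sds, which makes pyruvate from serine, had -0.54 ± 0.30 at 22 °C and 0.24 ± 0.31 at 30 °C, and Gls2 had 0.19 ± 0.18 and 0.12 ± 0.18. Over 11 alternative fits at 22 °C, Cdh1 had -0.18 to 0.32 and Etnppl -0.35 to 0.03, with 0 calls. Over 12 such fits at 30 °C, Cdh1 had -1.13 to -0.22 and Etnppl -0.76 to 0.11, again with 0 calls. Sds overlaps Plbd2 on the other strand, whose reads came to 40.6% of its own, and whether reads were counted by strand is not given, so its counts may be shared. The test of the difference between the 2 ablation effects called 0 of 10 (0% of all genes), with log2 values from -0.78 for Sds to 0.25 for Cdh1, 0 at an unadjusted p under 0.05, and 0 calls by DESeq2 or limma voom.

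RefSeq promoter windows (build GRCm38.p6) matched 4 of the 10 genes. The 250 bases before the start are shown for Hal, the gene with the lowest p above, at chr10:93488518-93488767 (plus strand), and for Etnppl, which differed between the sexes below, at chr3:130617198-130617447 (plus strand). Capitals mark matches to 6 short motifs searched on both strands: the C/EBP-type element TTGCNNAA, the CCAAT box, the TATA box spelled TATAAA, the STAT5-type element TTCNNNGAA, the core TGACG of the cAMP response element and the D-box-type element TTANNTAA.
Hal: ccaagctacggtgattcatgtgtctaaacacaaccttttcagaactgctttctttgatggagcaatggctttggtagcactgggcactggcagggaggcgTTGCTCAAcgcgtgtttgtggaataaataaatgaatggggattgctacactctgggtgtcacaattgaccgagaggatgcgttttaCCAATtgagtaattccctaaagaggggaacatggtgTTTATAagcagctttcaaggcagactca
Etnppl: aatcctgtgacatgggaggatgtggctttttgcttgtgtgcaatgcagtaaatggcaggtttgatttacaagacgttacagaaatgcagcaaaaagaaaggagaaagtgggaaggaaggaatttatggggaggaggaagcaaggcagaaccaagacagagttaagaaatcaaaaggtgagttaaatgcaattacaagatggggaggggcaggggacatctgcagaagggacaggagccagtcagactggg
The Hal window held the C/EBP-type element at -150, the CCAAT box at -64 and the TATA box, read on the minus strand, at -28, counted from the start. None of the 6 motifs was in the Etnppl window shown. Etnppl had another window, at chr3:130617325-130617574 (plus strand), for a different start, and none of the 6 was in it either. Among all 32851 promoter windows of that length, 9.56% held the C/EBP-type element, 33.8% the CCAAT box, 12.4% the TATA box, 7.02% the STAT5-type element, 17.8% the cAMP response core and 5.43% the D-box-type element. These matches are letters only and say nothing of binding.

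**Figure D4:**
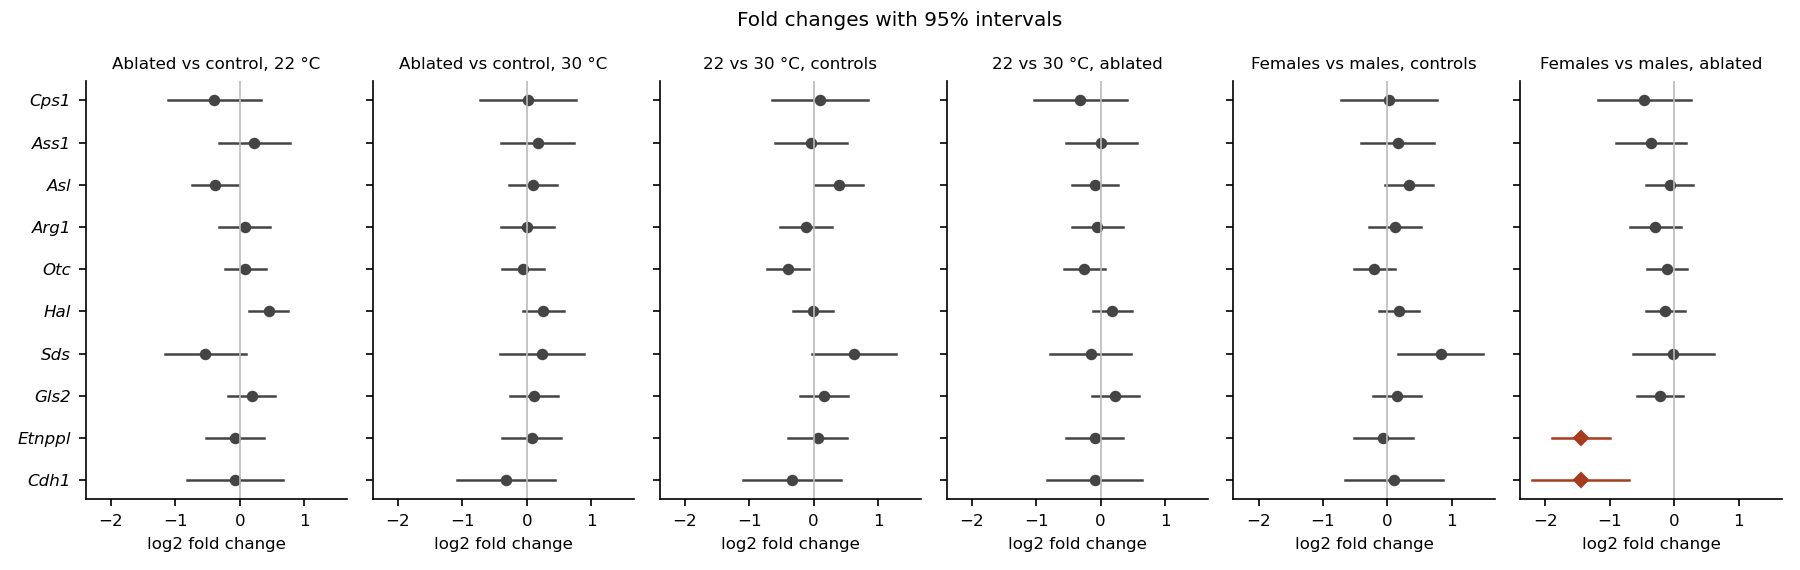
Log2 fold changes (points) with 95% intervals (lines) of the 10 genes in 6 comparisons, from the edgeR fit of all 24 libraries. Red diamonds are called at an adjusted p under 0.05, which only Etnppl and Cdh1 reach, both lower in ablated females than in ablated males.

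Housing temperature was compared next, 22 °C over 30 °C, although the mice of lines other than Ai39 x BAC-AT1A-Cre were all at 30 °C. It called 0 of 10 genes in controls and 0 of 10 in ablated mice, and 0.0346% of all genes in each; DESeq2 and limma voom called 0 as well. At an unadjusted p under 0.05 there were 2 of the 10 in controls and 0 in ablated mice, against 12.6% and 9.78% of all genes. The median log2 fold change of the 10 was 0.03 in controls and -0.09 in ablated mice. Otc had the lowest p among controls, with 398 ± 76.2 CPM (SD, n = 6) at 22 °C and 511 ± 122 (n = 6) at 30 °C. All 6 controls at 22 °C were below the mean of their sex at 30 °C, and the groups overlapped. The log2 fold change was -0.40 ± 0.16 (SE; edgeR adjusted p = 0.317). Control female 3 at 22 °C had the lowest Otc of all 24 (263 CPM) and the largest mitochondrial share (37.3%). Control male 1 at 30 °C, the library that stood apart, had the highest Otc of all 24 (720 CPM), and without it the value was -0.16 ± 0.17 (edgeR adjusted p = 0.966). Leaving out control male 2 at 30 °C instead made that library the lone 30 °C control male, and Otc was then called at -0.57 ± 0.17 (edgeR adjusted p = 0.0316), along with 1608 of all genes. In ablated mice Otc had -0.25 ± 0.15, with 6 of 6 livers at 22 °C below the mean of their sex at 30 °C (edgeR adjusted p = 0.618). Both comparisons therefore gave the same sign for Otc without a call.

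Asl and Sds in controls had positive values for the cold side. Asl was 972 ± 164 CPM at 22 °C and 804 ± 184 at 30 °C (n = 6 each; SD), a log2 fold change of 0.40 ± 0.18 (edgeR adjusted p = 0.370). Sds was 305 ± 114 and 239 ± 89.0 CPM, or 0.62 ± 0.31 (edgeR adjusted p = 0.413). Both overlapped between temperatures.

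The sexes were then compared, females over males. In controls edgeR, DESeq2 and limma voom called 0 of 10 genes, while edgeR called 2.81% of all genes. At an unadjusted p under 0.05 there was 1 of the 10, against 15.2% of all genes. Sds was 320 ± 75.0 CPM (SD, n = 7) in control females and 205 ± 107 (n = 5) in control males, with a log2 fold change of 0.82 ± 0.32 (edgeR adjusted p = 0.212). Cdh1 and Etnppl had 0.10 ± 0.36 and -0.07 ± 0.22 there. The tests of whether the ablation effect differed between females and males called 0 of 10 genes and 0% of all genes at each temperature by edgeR. At an unadjusted p under 0.05 they gave 3 of the 10 genes at 22 °C and 1 at 30 °C, against 6.26% and 6.64% of all genes. DESeq2 called 1 at 22 °C (Cdh1) and 0 at 30 °C, and limma voom 0 at both. The share of all genes that DESeq2 called there is not given here. In the comparisons counted at the end, DESeq2 called more of all genes than edgeR did. Whether the temperature effect in controls differed by sex was tested too, with 0 of 10 genes called by each of the 3 tools, 0% of all genes by edgeR, and 0 at an unadjusted p under 0.05. Without control male 1 at 30 °C, edgeR still called 0 of 10 genes in each of these comparisons that used it.

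A further 15 comparisons were chosen after these values were seen: the sex difference in ablated mice, the 12 pairs of groups that differ in 1 factor, and 2 differences of effects. They gave 4 calls among 150 tests of the 10 genes, all of them Cdh1 or Etnppl, lower in females than in males among ablated mice. Each of the 4 pairs of control and ablated groups that differ in temperature gave 0 calls, where 0% to 0.114% of all genes were called (0.0495% in ablated females and 0.0396% in ablated males). Female and male controls gave 0 calls at 22 °C, where 0.856% of all genes were called, and 0 at 30 °C, where 1.36% were. The calls rest on overlapping sets of mice and are not independent of each other.

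Cdh1 differed most. Ablated females at 22 °C measured 3.96, 6.30 and 7.94 CPM, and ablated males at 22 °C measured 42.4, 53.9 and 39.8 CPM. These are the 3 lowest of the 6 livers and the 3 highest, with no overlap. The log2 fold change was -2.90 ± 0.53 (SE; 3 of 3 females lower; edgeR adjusted p = 0.00618), in a comparison where 1.85% of all genes were called and 0.811% were called as lower in females. The counts behind the lowest value were 131 reads.

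Control livers at 22 °C lay between these extremes. Control females measured 15.3, 15.6 and 15.8 CPM of Cdh1, and control males 22.0, 25.4 and 11.2 CPM. So ablated females were all below, and ablated males all above, the controls of their own sex. Within females the ablation effect at 22 °C was -1.36 ± 0.51 (edgeR adjusted p = 0.833) and within males 1.22 ± 0.50 (edgeR adjusted p = 0.6002). Neither passed, in comparisons where 11.9% and 15.3% of all genes had groups with no overlap. The test of their difference, -2.58 ± 0.72, had an unadjusted edgeR p of 0.0021 and an edgeR adjusted p of 0.470. DESeq2 called that difference (-2.58, DESeq2 adjusted p = 0.0181), and limma voom did not (-2.73, limma adjusted p = 0.341). How many of all genes DESeq2 called there is not given here.

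At 30 °C the Cdh1 difference was not called. Ablated females measured 12.9, 8.02 and 32.02 CPM, and ablated males 14.6, 12.5 and 25.8. The groups overlapped, with a log2 fold change of 0.00 ± 0.50 and a 95% interval from -1.04 to 1.04. Control females at 30 °C measured 26.6, 28.8, 29.7 and 20.8 CPM, and control males 30.1 and 6.56. The difference of the sex effect between the temperatures in ablated mice was -2.90 ± 0.72 (edgeR adjusted p = 0.202; 0.0346% of all genes called). DESeq2 called it (-2.89, DESeq2 adjusted p = 0.00391), with its share of all genes called not given here.

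Etnppl was lower in ablated females than in ablated males at 22 °C, and at 30 °C the difference had the same sign without a call. At 22 °C ablated females measured 44.7, 53.8 and 63.2 CPM, and ablated males 174, 198 and 183 CPM. The groups were wide apart, with a log2 fold change of -1.78 ± 0.31 (edgeR adjusted p = 0.00217). At 30 °C ablated females measured 41.6, 71.5 and 103 CPM, and ablated males 113, 203 and 155. Here too the groups did not overlap, as for 14.3% of all genes, and the value was -1.12 ± 0.31 (edgeR adjusted p = 0.145; 0.589% of all genes called). Without ablated female 3 at 30 °C it was called (edgeR adjusted p = 0.0326). Taking both temperatures, Etnppl was 63.01 ± 22.7 CPM (SD, n = 6) in ablated females and 171 ± 33.4 (n = 6) in ablated males, a log2 fold change of -1.45 ± 0.22 (6 of 6 females lower; edgeR adjusted p = 0.000264; 2.24% of all genes called, 1.03% as lower in females).

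In controls the sexes were closer in Etnppl. Control females at 22 °C measured 78.1, 88.5 and 96.5 CPM of Etnppl, and control males 198, 79.4 and 101. The ablated females at 22 °C were all below these control females, as 11.9% of all genes had no overlap there, while ablated and control males overlapped. Within females at 22 °C the ablation effect on Etnppl was not called. It was -1.07 to -0.69 over 8 alternative fits, with 0 calls. Control females at 30 °C measured 144, 91.9, 137 and 88.0 CPM, and control males 96.0 and 80.3. Female and male controls overlapped at each temperature. The sex difference in ablated mice minus that in controls was -1.38 ± 0.31 for Etnppl (edgeR adjusted p = 0.249) and -1.55 ± 0.51 for Cdh1 (edgeR adjusted p = 0.519), and 0% of all genes were called. It is thus not shown by edgeR that the sex difference of either gene depends on ablation. DESeq2 called Etnppl in that test (-1.37, DESeq2 adjusted p = 0.0110), with its share of all genes called not given here.

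For the sex difference over both temperatures, Cdh1 was also called (11.9 ± 10.3 CPM in 6 females, 31.5 ± 16.5 in 6 males; log2 fold change -1.45 ± 0.36, edgeR adjusted p = 0.0381). Of 12 fits that each left out 1 ablated liver, 9 lost that call, with edgeR adjusted p up to 0.118; it held without female 3 at 22 °C, female 3 at 30 °C or male 2 at 30 °C. The calls at 22 °C held in all 6 such fits, with edgeR adjusted p from 0.0121 to 0.0440 for Cdh1 and from 0.00813 to 0.0232 for Etnppl.

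The other 8 genes in ablated mice at 22 °C also had lower means in females, and none was called. Cps1 was 410 ± 129 CPM (SD, n = 3) in females and 749 ± 183 (n = 3) in males, with a log2 fold change of -0.87 ± 0.49. Ass1 was 1228 ± 166 and 2055 ± 423 CPM (-0.74 ± 0.38), and Hal 306 ± 7.15 and 443 ± 60.3 CPM (-0.53 ± 0.21). These 3 genes and the 2 that were called had groups with no overlap, 5 of 10, where 22.1% of all genes had. The median over the 10 was -0.57, beside 0.00 over all tested genes. Otc had the smallest difference, -0.10 ± 0.22. At 30 °C the same comparison gave 6 of 10 genes higher in females and 4 lower.

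Cdh1 is also a bile duct gene, so markers of other cells are given beside it. The 9 cholangiocyte markers summed to 117 to 268 CPM in ablated females at 22 °C and 109 to 291 CPM in ablated males, and none of the 9 was at 0 throughout either group. In the sex comparison 0 of 8 tested cholangiocyte markers were called, with a median log2 fold change of -0.41. Spp1 made up most of these sums, with means of 122 and 152 CPM. Epcam was 2.07 ± 1.67 CPM in those females and 4.21 ± 3.13 in those males, Krt19 2.36 ± 1.36 and 3.83 ± 2.44, and Krt7 2.06 ± 1.21 and 1.98 ± 1.44. Sox9, a duct transcription factor, was 3.17 ± 1.83 CPM in the females and 9.05 ± 2.44 in the males with no overlap, and it was not called. The summed macrophage markers did not overlap either, at 304 to 352 CPM in the females and 87.9 to 254 in the males, nor did the endothelial markers, at 327 to 383 and 262 to 285 CPM. Of 10 genes in each of these lists 0 were called, with medians of 0.64 and 0.21 on the log2 scale. The erythroid genes Hba-a1 and Hbb-bs, the globins, were higher in these females, by 2.39 ± 0.54 and 2.49 ± 0.55 on the log2 scale (edgeR adjusted p = 0.0280 and 0.0268), and Alas2, of haem synthesis, had -2.02 ± 0.26 and was lower in control females too (-2.78 ± 0.19). Mitochondrial transcripts took 18.3%, 27.6% and 21.9% of reads in these females and 17.7%, 18.97% and 19.2% in the males. A fit with the mitochondrial share as a covariate gave -2.78 for Cdh1 (edgeR adjusted p = 0.0134) and -1.82 for Etnppl (edgeR adjusted p = 0.0110). These shares overlap between the 2 groups. The mitochondrial share is no direct measure of RNA quality, so that fit cannot decide the part of RNA quality. The part of cell makeup and RNA quality in the result was not tested.

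Other genes of the liver lobule were read from lists in the same comparison. Of 11 other periportal markers, 2 were called, both lower in ablated females at 22 °C than in males, where 1.85% of all genes were called. The rest were not called, so these 2 do not stand for the list. Summed over that list the groups overlapped, at 61016 to 64434 CPM in the females and 53643 to 71426 in the males. Ctsc of that list had the higher mean in the females (35.6 ± 7.27 against 25.7 ± 6.41 CPM). Pck1, the rate-limiting enzyme of gluconeogenesis, measured 577, 591 and 657 CPM in females and 1268, 1951 and 2131 in males, with no overlap. Its log2 fold change was -1.55 ± 0.33 (edgeR adjusted p = 0.0117). Cyp2f2, a periportal cytochrome P450, was 197 ± 31.7 and 486 ± 53.7 CPM (-1.30 ± 0.23, edgeR adjusted p = 0.00132). Cyp2f2 was lower in control females too (-0.75 ± 0.17, edgeR adjusted p = 0.00641).

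Pericentral genes were read in the same comparison. Of 16 pericentral markers, 15 had higher means in ablated females than males at 22 °C, with a median of 0.78, and 2 were called. Over all tested genes the median was 0.00, and 1.85% were called. The summed pericentral markers overlapped, at 4944 to 8902 CPM in the females and 3270 to 6111 in the males. The same counts for this list in controls are not given here. Nr1i3, the nuclear receptor CAR, was 102 ± 17.3 CPM in females and 31.1 ± 4.92 in males (1.71 ± 0.28, edgeR adjusted p = 0.000665). At 22 °C control females also had more Nr1i3 (123, 110 and 150 CPM) than control males (62.5, 69.2 and 92.6), without a call. The sexes of the controls overlapped in Nr1i3 at 30 °C. Rnf43, a Wnt feedback regulator, was 48.0 ± 7.74 and 21.4 ± 0.561 CPM (1.17 ± 0.30, edgeR adjusted p = 0.0384). In males Nr1i3 was also lower at 22 °C than at 30 °C after ablation (-1.64 ± 0.28, edgeR adjusted p = 0.0133). The hepatocyte markers Apoa1 and Serpina1c were lower in these females as well, with log2 fold changes of -1.25 ± 0.23 and -1.29 ± 0.25 (edgeR adjusted p = 0.00216 and 0.00355).

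**Figure D5:**
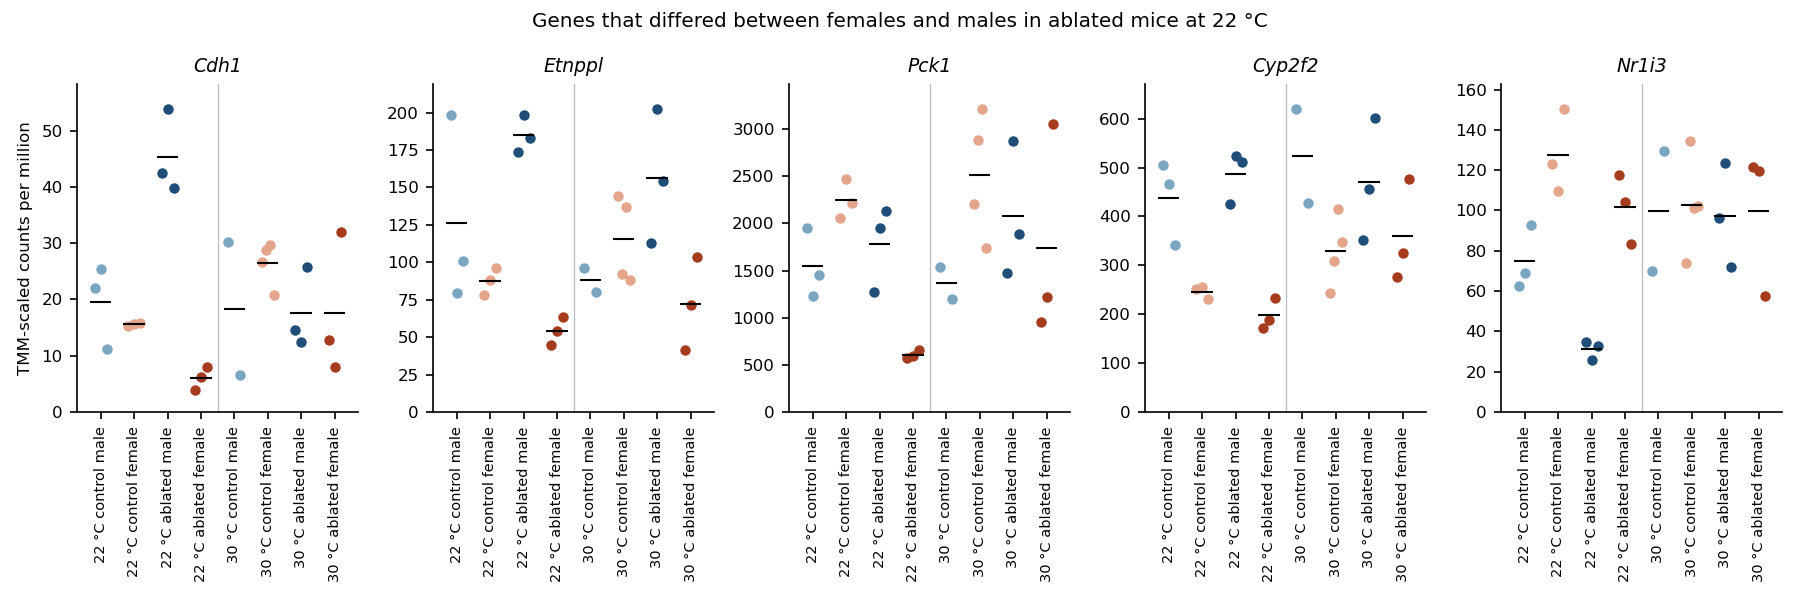
TMM-scaled CPM by library and group (black lines, group means) for genes called between females and males in ablated mice at 22 °C: Cdh1, Etnppl and the periportal Pck1 and Cyp2f2, lower in females, and the pericentral Nr1i3, higher. Pale points are controls and dark points ablated mice, blue for males and red for females. Pck1 in the 3 ablated females (577 to 657 CPM) is below all 21 other libraries.

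Pck1 was the 1 related gene that passed for ablation within females at 22 °C, where 0.0297% of all genes were called. Control females measured 2054, 2471 and 2212 CPM against 577, 591 and 657 in ablated females; the groups were far apart. The log2 fold change was -1.88 ± 0.34 (3 of 3 lower; edgeR adjusted p = 0.0309). No control female at 22 °C carried Cre, so ablation and Cre cannot be told apart in this comparison. In males it was 0.21 ± 0.33 (edgeR adjusted p = 0.960). The test of the difference between the sexes, -2.09 ± 0.47, did not pass (edgeR adjusted p = 0.176).

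Few related genes passed the test outside the sex comparisons. Of 102 related genes tested (urea cycle supply and transport, amino acid catabolism, glutamine enzymes, zonation markers, regulators and junction partners), 1 was called higher for ablation at 22 °C, and none for ablation at 30 °C or for temperature in controls or in ablated mice with the sexes pooled; within ablated males, Nr1i3 was called for temperature, as given above. The 1 was Etnk1, ethanolamine kinase, which makes the phosphoethanolamine that Etnppl breaks down. It measured 57.6, 55.3 and 57.7 CPM in ablated females and 70.4, 61.4 and 68.2 in ablated males at 22 °C. Control females measured 35.5, 36.2 and 37.9 CPM, and control males 44.8, 50.4 and 44.8. All ablated livers were above all controls at 22 °C, with a log2 fold change of 0.58 ± 0.11 (edgeR adjusted p = 0.0200), and 0.5% of all tested genes had no overlap there. Of the 6 controls at 22 °C, 5 did not carry Cre, and with a term for Cre the call was lost, with 0 of all genes called. At 30 °C the ablated livers measured 35.5 to 49.8 CPM and the controls 31.2 to 44.7, and they overlapped.

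Nags, which makes the activator of Cps1, had -0.19 for ablation at 22 °C and 0.36 at 30 °C. The ornithine carrier Slc25a15 had -0.11 and 0.23, and the aspartate-glutamate carrier Slc25a13 -0.19 and -0.07. None was called. Glul, the pericentral glutamine synthetase, had -0.92 and 0.05 (edgeR adjusted p = 0.232 and 1.00). The regulators Klf15, Ppargc1a and Cebpb had -0.34, -0.10 and -0.33 at 22 °C, and the glucagon receptor gene Gcgr -0.37. The glutamate-forming enzymes Glud1 and Oat had -0.15 and -0.19, and Tat, which starts tyrosine breakdown, -0.18. Arg2, the mitochondrial arginase, was at or near 0 in every liver at 22 °C, at most 0.272 CPM, too few reads for a fold change. Ppargc1a was called in the sex comparison of controls, at 13.2 ± 2.79 CPM in 7 females and 7.83 ± 0.689 in 5 males (0.77 ± 0.19, edgeR adjusted p = 0.0176). Also called there were Ctsc, a periportal lysosomal protease (1.28 ± 0.20), and Jup, the junction protein plakoglobin that binds E-cadherin (0.56 ± 0.13), both higher in females. In ablated mice Ctsc (0.80 ± 0.19) and Slc25a44, a carrier of branched-chain amino acids (0.54 ± 0.14), were called higher in females. Of the 33 amino acid catabolism genes, Acmsd of the tryptophan pathway was called in the sex comparison of ablated mice (-2.04 ± 0.51, edgeR adjusted p = 0.0456), and Sdsl, a relative of Sds, in that at 22 °C (-1.20 ± 0.29, edgeR adjusted p = 0.0236). Car5a, the mitochondrial carbonic anhydrase that supplies bicarbonate to Cps1, was higher in ablated females than males at 22 °C (24.98 ± 7.08 and 11.003 ± 4.48 CPM; 1.18 ± 0.28, edgeR adjusted p = 0.0172).

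The genes whose pattern over the 24 libraries was most like that of each of the 10 were sought among 8300 protein-coding genes by Pearson's r of log2 CPM. Slc25a15 was closest to both Cps1 (r = 0.84) and Ass1 (r = 0.90). Hgd was closest to Asl (0.80) and Sds (0.74), and Slc38a4, an amino acid transporter, to Arg1 (0.77) and Gls2 (0.72). Otc was most like Ndufv2 (0.92), Hal like Nnmt (0.78), Etnppl like Acmsd (0.82) and Cdh1 like Spin1 (0.84). Without control male 1 at 30 °C the closest gene was another for Hal (Aass, 0.83) and the same for the other 9.

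The genes lie apart in the genome, by the GRCm39 coordinates of the deposited tables. Cdh1 is at chr8:107329983-107396878 and Etnppl at chr3:130411097-130431170, both on the plus strand, and neither overlaps another listed gene. Otc is on the X chromosome, at chrX:10118544-10187263 (plus strand). Hal (chr10:93324630-93355166, plus), Arg1 (chr10:24791119-24803382, minus) and Gls2 (chr10:128030326-128045873, plus) share chromosome 10 at a distance. Asl (chr5:130040099-130058088, minus) and Sds (chr5:120614591-120621997, plus) share chromosome 5. Cps1 is at chr1:67162185-67270418 and Ass1 at chr2:31360219-31410684, both plus.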

How the data were processed

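Poly-A selected liver RNA of 24 mice was sequenced. Per the submitters' processing notes CASAVA, HISAT2 and DESeq2 were used with GRCm39; no version, counting program, strand setting or annotation release is stated. The authors deposited 3 tables of 12 libraries each, joined here to 27802 genes, with 40326 missing values set to 0. Tests used only the deposited raw read counts. The FPKM values were deposited by the authors and scale counts by gene length and an effective library size; they serve levels between genes. The deposited signal columns hold counts over a size factor and, like the deposited gene lengths (other), were read only to check units.

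Counts were tested with edgeR 4.0.16 in R 4.3.3 (TMM, filterByExpr, robust quasi-likelihood F test, two-sided, 8 group means, 16 residual degrees of freedom) over all libraries. P-values were adjusted by Benjamini and Hochberg over 20213 genes, with a call at an adjusted p under 0.05. SE is the absolute log2 fold change divided by the root of F. CPM are TMM-scaled. The alternatives used limma 3.58.1 and DESeq2 1.42.0. The code was tested on simulated counts.

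Named were all 10 genes, 14 related genes in every comparison, up to 4 called genes per list and comparison by lowest p, and the 3 genes of closest pattern at log2 CPM 3 or more on average, of which the first is given. The members and lists were chosen with earlier results of these data known, and 15 of 24 comparisons were added after values were seen.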

Additional observations from a re-analysis of the deposited data

How the results depend on the processing

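Each count of called genes among the 10 was recomputed under up to 36 settings, and of 4460 single values 0 reversed a call, 11 lost one and 29 gained one; 384 of the 4363 that were called in neither fit changed sign. Without a low-count filter the count rose from 0 to 1 for ablation at 22 °C, temperature in controls and sex in controls (Sds each time) and for the ablation effect by sex at 30 °C (Etnppl), and to 2 for that at 22 °C (Cdh1, Etnppl). In the added comparisons it rose from 2 to 3 for sex in ablated mice at 22 °C (Cps1 gained, -0.88, edgeR adjusted p = 0.00960), and from 0 to 3 (ablation in females at 22 °C; sex difference, ablated minus controls), 2 (temperature effect by sex in ablated mice) or 1 (ablation in males at 22 °C, temperature in ablated females, control males and ablated males, sex at 30 °C in controls and in ablated mice). DESeq2 gave 1 in place of 0 for the ablation effect by sex at 22 °C, temperature in ablated females, sex in ablated mice at 30 °C, the temperature effect by sex in ablated mice and the sex difference, ablated minus controls. The share of all genes that DESeq2 called in these comparisons is not given here, and the causes were not tested.

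Leaving out 1 library gave 0 to 1 for temperature in controls (1, Otc, without control male 2 at 30 °C), sex in ablated mice at 30 °C and the sex difference, ablated minus controls (1, Etnppl, without control male 1 at 22 °C), and 1 to 2 for sex in ablated mice. For sex in ablated mice a term for Cre also left 1 of 2 (Etnppl).

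Equal replicate numbers did not pair the mice: of 22 pairs 0 correlated over 0.1 (-0.141 to 0.0956). With the replicate number as a block, sex in ablated mice kept 1 call of 2 (Etnppl; Cdh1 -1.49, edgeR adjusted p = 0.0630), and the count of called genes among the 10 changed in no other comparison.

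Over all genes, the main, DESeq2 and unfiltered counts were 19, 144 and 400 for ablation at 22 °C, 0, 43 and 74 for ablation at 30 °C, 7, 268 and 273 for temperature in controls, 7, 159 and 493 for temperature in ablated mice, 568, 1103 and 971 for sex in controls, 453, 698 and 806 for sex in ablated mice, and 373, 709 and 852 for the latter at 22 °C. With a term for Cre ablation at 22 °C called 0 and sex in controls 223. All ablated mice carried Cre and most controls did not, so Cre and ablation cannot be told apart within females at 22 °C.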
